A study of Mus musculus with 24 samples.

Results

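The genes described here are 10 transcripts that mark macrophages, the phagocytes that live between the fibres and along the sheaths of peripheral nerve. The 10 genes (Csf1r, Cx3cr1, Trem2, C1qa, C1qb, C1qc, Mrc1, Cd163, Aif1 and Cd68) were found by their name on the array, out of 37074 gene names, and each was represented by its brightest probe. All 10 were well above background on all 24 arrays. RNA came from the efferent nerve fibres (EN, ventral root) and the afferent nerve fibres (AN, dorsal root) of lumbar segments L4 to L6 of C57BL/6 mice, taken at birth (postnatal day 0, P0) and after 1 W, 3 W and 5 W. This gave 8 groups of 3 one-colour Agilent arrays. The labels name no treatment or altered allele in any group, and both sexes were used. The methods describe several animals per age with tissue collected by group. Whether the 3 arrays of a group came from separate animals or pools is not stated. The tissue label names spinal cord segments, while the protocol describes the nerve fibres arising from them. Markers of neuron cell bodies differed widely between arrays. The third AN array of 3 W had the highest level of all, and the 3 EN arrays of P0 stood above every later EN array although labelled as ventral root. At 1 W all 3 AN arrays stood above every EN array of any age. Several results that rest on the third AN array of 3 W are given with and without it, and changes since P0 in EN rest on the P0 arrays of EN throughout.

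Macrophages depend on the receptor Csf1r, which binds the growth factors Csf1 and Il34. Cx3cr1 is the receptor for the chemokine Cx3cl1, and Trem2 is a lipid-sensing receptor that signals through the adaptor Tyrobp. C1qa, C1qb and C1qc encode the chains of C1q, the recognition unit of the classical complement pathway. Mrc1 (mannose receptor) and Cd163 (haemoglobin scavenger receptor) take up ligands from the surroundings and mark resident tissue macrophages. Aif1 (Iba1) is a cytoskeletal protein and Cd68 a lysosomal one, and both are widely used to stain macrophages. Several of these genes are also made by microglia and monocytes, so none of them names a cell type alone. In tissue RNA, a change in the number of macrophages and a change in RNA per macrophage cannot be told apart.

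The C1q genes lie side by side on mouse chromosome 4 and moved almost as one, with Mrc1 close to them (r of 0.89 to 0.94 over the 24 arrays), while Cd163 and Cx3cr1 followed other courses, so the bases before the start of 5 of these genes are shown. C1qb (chr4:136880126-136886200), C1qc (chr4:136889801-136892936) and C1qa (chr4:136895916-136898844) fall within 18719 bases. Each line below gives the 250 bases upstream of a RefSeq start on build GRCm38.p6, written 5′ to 3′ on the strand of the gene. For C1qc and Cd163 that start lies inside the gene interval, so the window overlaps it. The C1qc interval ends at 136892936 and that of Cd163 begins at 124304636. C1qb is chr4:136886201-136886450 (minus strand), C1qc chr4:136892915-136893164 (minus), Mrc1 chr2:14229164-14229413 (plus), Cd163 chr6:124304401-124304650 (plus) and Cx3cr1 chr9:120068297-120068546 (minus). Capitals mark GAGGAA on either strand (TTCCTC on the other), the core of the site bound by PU.1, a transcription factor of myeloid cells.
C1qb: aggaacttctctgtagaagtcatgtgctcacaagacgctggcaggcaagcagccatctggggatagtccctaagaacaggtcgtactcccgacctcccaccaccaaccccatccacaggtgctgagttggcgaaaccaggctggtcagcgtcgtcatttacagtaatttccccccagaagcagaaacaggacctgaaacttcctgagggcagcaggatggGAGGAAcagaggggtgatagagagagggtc
C1qc: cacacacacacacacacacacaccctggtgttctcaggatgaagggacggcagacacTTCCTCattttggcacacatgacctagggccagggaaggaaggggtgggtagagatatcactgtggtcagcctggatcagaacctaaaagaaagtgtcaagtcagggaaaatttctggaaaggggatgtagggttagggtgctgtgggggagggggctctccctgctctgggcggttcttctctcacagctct
Mrc1: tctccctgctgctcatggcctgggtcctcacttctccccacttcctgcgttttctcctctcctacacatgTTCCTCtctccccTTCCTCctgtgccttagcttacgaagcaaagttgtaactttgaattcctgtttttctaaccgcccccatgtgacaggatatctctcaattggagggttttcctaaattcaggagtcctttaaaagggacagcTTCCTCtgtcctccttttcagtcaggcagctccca
Cd163: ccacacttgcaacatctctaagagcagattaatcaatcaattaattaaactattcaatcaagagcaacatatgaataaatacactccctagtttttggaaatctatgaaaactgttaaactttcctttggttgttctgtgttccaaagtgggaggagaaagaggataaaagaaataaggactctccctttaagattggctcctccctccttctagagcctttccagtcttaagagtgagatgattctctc
Cx3cr1: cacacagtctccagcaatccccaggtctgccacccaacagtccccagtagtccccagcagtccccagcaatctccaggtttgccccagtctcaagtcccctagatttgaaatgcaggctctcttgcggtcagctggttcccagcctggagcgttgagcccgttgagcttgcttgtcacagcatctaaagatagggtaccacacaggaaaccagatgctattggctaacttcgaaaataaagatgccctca
Of the 8 members with an upstream sequence, 6 held the motif: Aif1, C1qb, C1qc, Cd68, Trem2 and Mrc1, the last with 3 copies at 35, 167 and 180 bases before the start. The match of Aif1 was before the start used here but inside its gene interval. The windows of Cd163 and Cx3cr1 did not hold these letters. Aif1 and Trem2, which held them and are not shown, correlated with Cx3cr1 at 0.77 and 0.89 over the 24 arrays. Among all 32841 upstream windows of the same length, 23.3% held GAGGAA. These are matches of letters only, and binding was not measured.

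**Figure D1:**
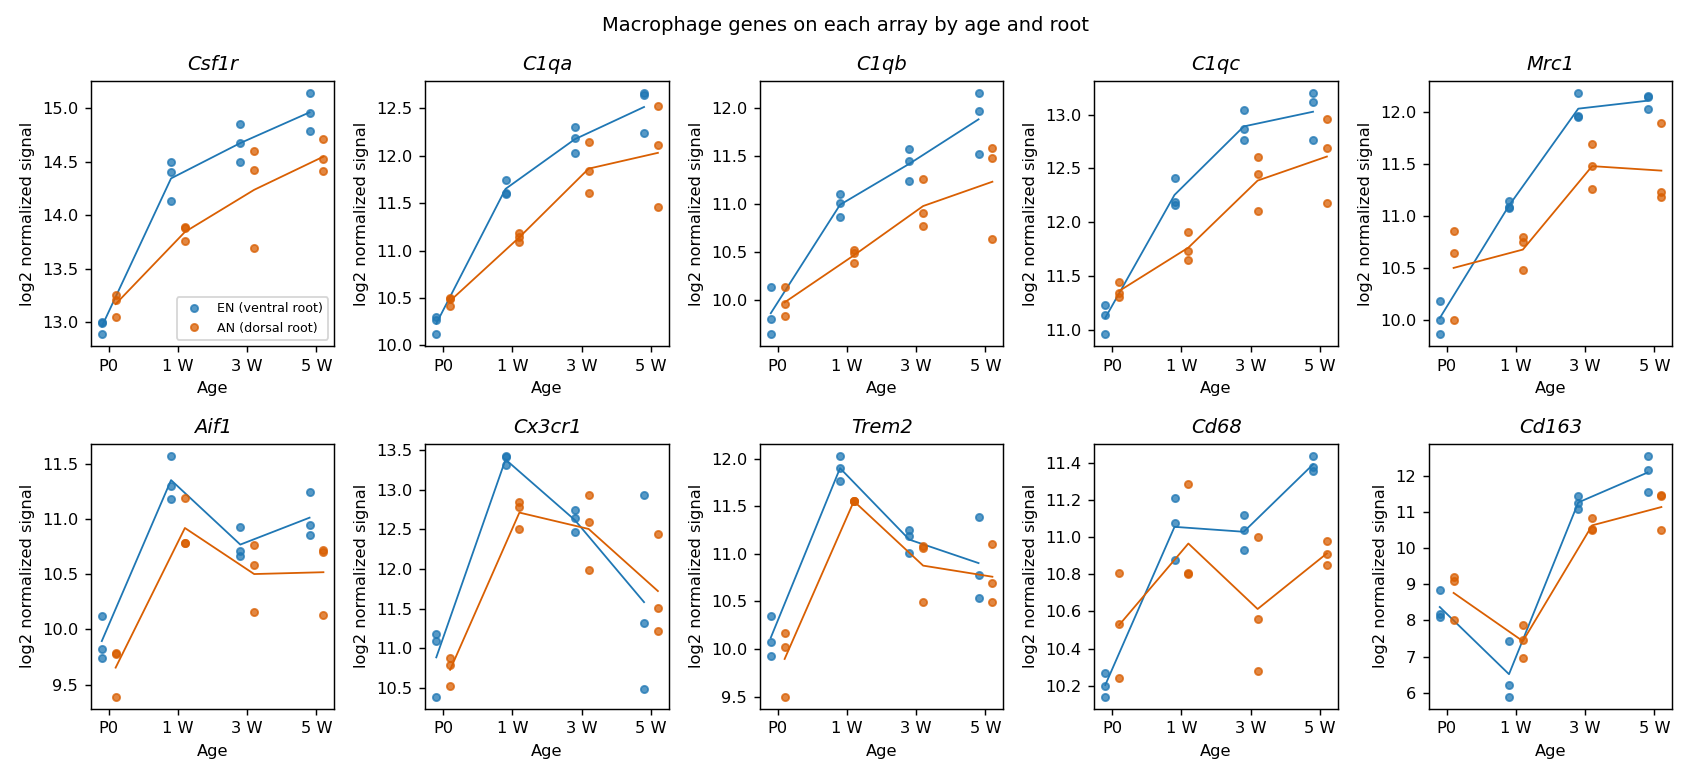
Each panel gives 1 gene, with age on the x axis and the log2 normalized signal on the y axis. Points are single arrays (3 per group), lines join group means, blue is EN and orange is AN. The upper genes climb from P0 to 5 W in EN, Cx3cr1 and Trem2 are highest at 1 W in both roots, and Cd163 is lowest at 1 W.

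The first question was how the genes changed with age within each root. Called means an unadjusted p below 0.05 and a fold above 2, the thresholds of the study, in a limma fit to all 24 arrays, and adjusted p is over all 36409 probes tested. In EN, 8 of 10 members were called higher than at P0 at each of 1 W, 3 W and 5 W, although not the same 8. The median change of the members was 1.26, 1.72 and 1.96 on the log2 scale, against 0.06, 0.04 and 0.04 for all probes tested. Of all probes tested in EN, 6.87%, 16.6% and 15.8% were called higher at these ages. In AN the corresponding counts were 3, 6 and 5 of 10, with median changes of 0.58, 1.02 and 1.12 and with 5.8%, 15.5% and 15.6% of all probes called higher. In both roots 1 member, Cd163, was called lower at 1 W, where 6.66% of all probes were called lower in EN and 4.5% in AN. No member was called lower than P0 at 3 W or 5 W, where 14.8% and 15% of all probes were called lower in EN and 13.3% at either age in AN. Beside the AN counts stands a dependence on single arrays: the count at 3 W was 3 without AN 3W replicate 2 and 9 without AN 3W replicate 3, and the count at 5 W was 9 without AN 5W replicate 2. The 3 W arrays shared no slide with P0, so that comparison could not be made within a slide.

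Csf1r, the receptor that macrophages need to survive, was higher at each later age than at P0 in EN. Its log2 signal on the 3 EN arrays was 12.99, 13 and 12.89 at P0, 14.5, 14.4 and 14.13 at 1 W, 14.5, 14.67 and 14.85 on the 3 W arrays, and 15.14, 14.95 and 14.79 at 5 W. No later EN array reached down to the P0 arrays, while 3 W touched 1 W and overlapped 5 W. The change since P0 was 1.38 at 1 W and 1.71 at 3 W (SE 0.179 each), and at 5 W it was 3.99-fold with an adjusted p of 3.36e-08. In AN it read 13.05, 13.21 and 13.25 at P0, 13.88, 13.89 and 13.76 at 1 W, 14.42, 14.6 and 13.69 on the 3 W arrays, and 14.52, 14.41 and 14.71 at 5 W. The third AN array at 3 W lay below the other two and below all AN arrays of 1 W. Csf1r was called in AN at 3 W (1.07, adjusted p = 7.4e-05) and at 5 W (1.38, adjusted p = 3.51e-06), and at 1 W its change was 0.67 (adjusted p = 0.0108), under 2-fold. The AN call at 3 W was lost without AN 3W replicate 1 (0.98) or 2 (0.885). Within a slide, EN at 1 W exceeded EN at P0 by 1.5 on slide 1 and by 1.18 on slide 3. A second, dimmer Csf1r probe that lies further from the end of the transcript was flatter, with EN means of 8.95, 9.4, 9.13 and 9.54 from P0 to 5 W, and was not called at any age in either root.

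The 3 chains of C1q rose together in both roots. C1qa in EN was 10.3, 10.27 and 10.12 at P0, 11.6, 11.74 and 11.61 at 1 W, 12.03, 12.19 and 12.3 on the 3 W arrays, and 12.66, 12.24 and 12.64 at 5 W. The EN groups of the first 3 ages were fully separated from one another, and 3 W and 5 W overlapped. Its rise since P0 reached 2.28 (SE 0.195, 4.87-fold, adjusted p = 1.75e-08) at 5 W, the steepest of the 3 chains. C1qa in AN was 10.42, 10.49 and 10.5 at P0, 11.14, 11.19 and 11.09 at 1 W, 11.84, 12.14 and 11.61 on the 3 W arrays, and 12.11, 11.46 and 12.52 at 5 W. The AN arrays at 5 W were spread widely, with the second one below all 3 arrays of 3 W. In AN the rise was 0.67 at 1 W (adjusted p = 0.0184, under 2-fold), 1.40 at 3 W and 1.56 at 5 W (adjusted p = 2.19e-06).

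C1qb and C1qc followed the same course. C1qb in EN rose from a mean of 9.87 ± 0.25 (SD, n = 3) at P0 to 11.0 ± 0.12, 11.42 ± 0.17 and 11.89 ± 0.32 at the later ages, a 4.05-fold change over the whole span with an adjusted p of 3.23e-07. C1qc in EN rose from 11.11 ± 0.14 (SD, n = 3) to 12.25 ± 0.14, 12.89 ± 0.14 and 13.03 ± 0.23, a 3.78-fold change with an adjusted p of 4.7e-08. For both genes every later EN array was above every P0 array. In AN both were under 2-fold at 1 W (0.49 for C1qb and 0.41 for C1qc) and just over 2-fold at 3 W (1.01 and 1.03), with folds of 2.39 for each at 5 W. The AN calls at 3 W were the least steady of the C1q results: with the slide as a block the changes were 0.80 for C1qa, 0.55 for C1qb and 0.60 for C1qc, and without AN 3W replicate 2 they were 0.87 for C1qb and 0.92 for C1qc. Both sat so near 2-fold that C1qb also missed it without AN P0 replicate 2 (0.997) or 3 (0.935), and C1qc without AN 3W replicate 1 (0.998). Across the 24 arrays, which share ages and slides, the 3 chains correlated at 0.97 to 0.99 with one another and at 0.95 to 0.97 with Csf1r.

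Mrc1, the mannose receptor, rose in EN at all 3 later ages, with little between 3 W and 5 W (0.07). Its EN arrays read 9.86, 10.18 and 10 at P0, 11.08, 11.07 and 11.14 at 1 W, 11.96, 11.95 and 12.18 on the 3 W arrays, and 12.03, 12.15 and 12.14 at 5 W. All later EN arrays were above P0 and those of 3 W above those of 1 W, while 3 W and 5 W overlapped. The change since P0 was 1.08, 2.02 and 2.09 (SE 0.199), the last 4.26-fold with an adjusted p of 7.31e-08. In AN, Mrc1 was 10, 10.64 and 10.85 at P0, 10.48, 10.75 and 10.79 at 1 W, 11.48, 11.69 and 11.26 on the 3 W arrays, and 11.18, 11.23 and 11.89 at 5 W. The P0 and 1 W arrays of AN overlapped and those of 3 W and 5 W were above both. No AN change was past 2-fold: 0.18 at 1 W (adjusted p = 0.585), 0.98 at 3 W (adjusted p = 0.000465) and 0.94 at 5 W (adjusted p = 0.000651). Mrc1 passed 2-fold in AN at 3 W without AN 3W replicate 3 (1.09) or AN P0 replicate 2 (1.05) or 3 (1.16), and at 5 W without AN 5W replicate 1 (1.06) or 2 (1.04) or AN P0 replicate 2 (1.01) or 3 (1.115). Other settings lowered these AN changes: without AN P0 replicate 1 they were -0.069, 0.734 and 0.691 at the 3 later ages, and with the slide as a block the 3 W change was 0.554 (adjusted p = 0.0739).

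Cd163, the scavenger receptor for haemoglobin bound to haptoglobin, had the widest range of the 10 genes and was the only one to dip first. In EN it was 8.18, 8.83 and 8.1 at P0, 5.89, 6.21 and 7.44 at 1 W, 11.25, 11.09 and 11.44 on the 3 W arrays, and 11.54, 12.55 and 12.17 at 5 W. All 4 ages were separated in EN, with the 1 W arrays lowest. The fall at 1 W was -1.85 (SE 0.395, 3.62-fold lower, adjusted p = 0.00201). From 1 W to 3 W it rose by 4.74 (26.8-fold, adjusted p = 1.85e-07), where 6.61% of all probes were called higher, and at 5 W it stood 13.1-fold above P0. The EN values of 5.89 and 6.21 at 1 W lay near the lowest signals above background, which ran from 3.71 to 5.87 over the arrays. With normexp background correction the rise from 1 W to 3 W was 3.9. In AN Cd163 was 8.01, 9.19 and 9.08 at P0, 6.97, 7.45 and 7.86 at 1 W, 10.5, 10.84 and 10.54 on the 3 W arrays, and 10.5, 11.46 and 11.44 at 5 W. The dip was also present in AN (-1.33, adjusted p = 0.0211), with every 1 W array below every P0 array, followed by a 9.19-fold rise to 3 W (adjusted p = 1.3e-05), where 6.92% of all probes were called higher. By the brightest probe of each gene, Cd163 was the only member called in either root between 1 W and 3 W. Within a slide the 1 W arrays were lower than P0 by a log2 difference of -2.29 and -1.02 in EN and -1.04 and -1.27 in AN on slides 1 and 3.

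A second Cd163 probe was well above background on 12 arrays only, all of them at 3 W and 5 W, and so gave no value for the dip. Against P0 it was at least 2.98-fold higher in EN at 3 W and at least 4.11-fold at 5 W, and in AN at least 1.98-fold and 2.32-fold. With all Cd163 probes averaged, the dip at 1 W was under 2-fold in the limma fit. It was -0.929 in EN (adjusted p = 0.034) and -0.789 in AN (adjusted p = 0.0827).

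**Figure D2:**
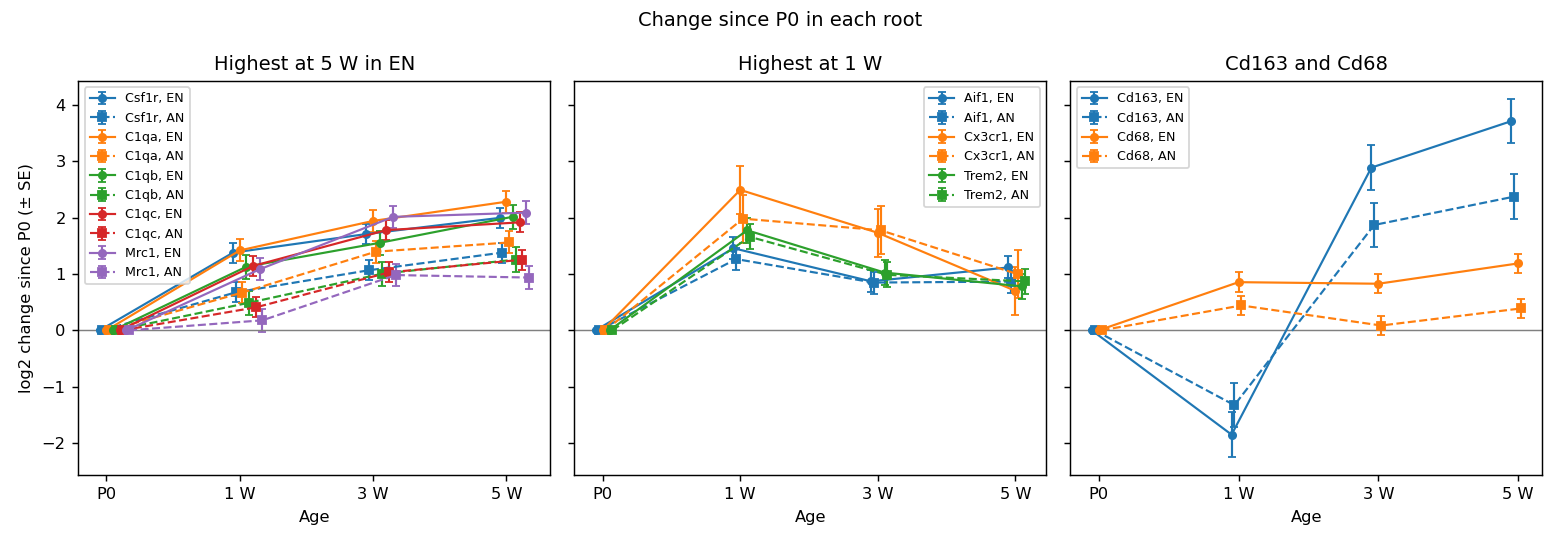
The y axis is the log2 change since P0 with its SE from the limma fit, and the x axis is age. Solid lines with circles are EN and dashed lines with squares are AN. Csf1r, C1q and Mrc1 end near 2 in EN and between 0.94 and 1.56 in AN, Aif1, Cx3cr1 and Trem2 are highest at 1 W, and Cd163 falls before it rises.

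Cx3cr1, the fractalkine receptor, had its highest mean at 1 W in both roots, an order that turned with the slide or the scan batch as a block, where 3 W lay above 1 W by 0.432 and 0.523 in EN and by 0.988 and 1.078 in AN. Its EN arrays were 11.18, 11.09 and 10.39 at P0, 13.41, 13.43 and 13.31 at 1 W, 12.47, 12.75 and 12.64 on the 3 W arrays, and 12.94, 11.32 and 10.49 at 5 W. The 1 W arrays were tight and above all others, while those at 5 W spread from within the P0 range to above 3 W. The rise at 1 W was 2.49 (SE 0.429, 5.63-fold, adjusted p = 0.00036), and at 5 W the change was 0.70 (adjusted p = 0.178), or 0.02 without EN 5W replicate 1 and 1.25 without replicate 3. Its fall in EN from 3 W to 5 W (-1.03, adjusted p = 0.227) was called, where 1.89% of all probes were called lower, and it rested on the third EN array of 5 W, without which it was -0.48. It also missed the threshold without EN 5W replicate 2 (-0.90) or EN 3W replicate 2 (-0.97) or 3 (-1.02), and without EN 5W replicate 1 a second member, Cd163, was called in that step (1.10). In AN the arrays were 10.79, 10.88 and 10.52 at P0, 12.79, 12.85 and 12.5 at 1 W, 12.6, 12.93 and 11.99 on the 3 W arrays, and 12.44, 11.51 and 11.22 at 5 W. All later AN arrays were above P0, with rises of 1.98 at 1 W (adjusted p = 0.00268) and 1.78 at 3 W (adjusted p = 0.00203). From 3 W to 5 W in AN no member was called, where 1.62% of all probes were called lower, although Cx3cr1 was called without AN 3W replicate 3 (-1.04) or AN 5W replicate 1 (-1.14). Its 5 W change in AN, 0.99, passed 2-fold without AN 5W replicate 2 (1.10) or 3 (1.25) or AN P0 replicate 2 (1.07), and was 0.637 without AN 5W replicate 1. With the slide or the scan batch as a block it was called (1.148 and 1.307). A second Cx3cr1 probe gave called rises in EN at all later ages (2.34, 1.88 and 1.09) and in AN at 1 W and 3 W (1.53 and 1.28).

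Trem2 was also highest at 1 W. In EN it was 10.35, 9.93 and 10.08 at P0, 12.03, 11.9 and 11.77 at 1 W, 11.01, 11.25 and 11.19 on the 3 W arrays, and 11.39, 10.54 and 10.78 at 5 W. The 1 W arrays lay above every other EN array and the P0 arrays below. The rise at 1 W was 3.43-fold in EN (1.78, SE 0.22, adjusted p = 1.48e-05) and 3.16-fold in AN (1.66, adjusted p = 2.92e-05). AN arrays were 10.17, 9.5 and 10.02 at P0, 11.56, 11.55 and 11.55 at 1 W, 11.08, 11.06 and 10.49 on the 3 W arrays, and 11.1, 10.49 and 10.69 at 5 W. Later arrays fell between these levels, and the difference of 3 W from 1 W was -0.75 in EN (adjusted p = 0.0167) and -0.68 in AN (adjusted p = 0.0272), under 2-fold in both. At 3 W Trem2 was called in EN (1.02) but not without EN 3W replicate 2 (0.98) or EN P0 replicate 2 (0.93). In AN it was 0.98 at 3 W and 0.87 at 5 W, and passed 2-fold at 3 W without AN 3W replicate 3 (1.18) or AN P0 replicate 1 (1.12) or 3 (1.05), and at 5 W without AN 5W replicate 2 (1.003) or AN P0 replicate 1 (1.01).

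Aif1 rose by 1.46 in EN (SE 0.196, 2.75-fold, adjusted p = 3.38e-05) and by 1.26 in AN (2.40-fold, adjusted p = 0.000142) at 1 W. EN means were 9.89 ± 0.20 (SD, n = 3) at P0, 11.35 ± 0.20 at 1 W, then 10.76 ± 0.14 and 11.01 ± 0.20, and AN means were 9.65 ± 0.23, 10.92 ± 0.23, 10.5 ± 0.31 and 10.52 ± 0.34. In both roots every later array was above every P0 array. The AN changes of 0.85 at 3 W and 0.86 at 5 W passed 2-fold without AN 3W replicate 3 (1.02) and without AN 5W replicate 2 (1.06). Cd68 moved least: in EN it was 10.2 ± 0.07 (SD, n = 3) at P0, 11.06 ± 0.17 at 1 W, then 11.03 ± 0.09 and 11.39 ± 0.05, with only the last change (1.19, adjusted p = 1.26e-05) past 2-fold. In AN its means were 10.53 ± 0.28, 10.97 ± 0.28, 10.61 ± 0.36 and 10.91 ± 0.06, and the changes of 0.44, 0.09 and 0.39 had adjusted p of 0.0769, 0.706 and 0.0691. Of the other Cd68 probes, 1 was called in EN at all 3 later ages (1.23, 1.28 and 1.55). The other, the dimmest and above background on 22 arrays, was called in EN at 1 W and 5 W but not at 3 W (1.25, 1.33 and 0.48). In AN this dimmest probe stood at -0.62 at 3 W (adjusted p = 0.0686), and it was called lower from 1 W to 3 W (-1.16, adjusted p = 0.00434). Over the 24 arrays, Aif1, Cx3cr1 and Trem2 correlated with one another at 0.77 to 0.89, and Cd163 correlated with Cx3cr1 at -0.25, with Trem2 at -0.29 and with Mrc1 at 0.73.

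The second question was whether the 2 roots differed at a given age. At P0 most members lay slightly higher in AN, and from 1 W on most lay lower in AN than in EN, by less than 2-fold. The median AN minus EN difference of the 10 genes was 0.22 at P0 and -0.46, -0.43 and -0.48 at the later ages, against medians over all probes of 0.01, -0.06, -0.03 and -0.03. No member was called at any age, and the lowest adjusted p among them was 0.507, 0.159, 0.107 and 0.0503. Of all probes, 0.343% were called higher and 0.775% lower in AN at P0, 4.17% and 0.813% at 1 W, 4.18% and 1.46% at 3 W, and 4.24% and 1.38% at 5 W. With the fold threshold set aside, an unadjusted p below 0.05 was reached by 1 member at P0 (Mrc1, higher in AN, beside 3.41% of all probes), by 6 lower in AN at 1 W (beside 6.64%) and 1 higher, Cd163 (beside 7.1%), by 4 at 3 W (beside 10.7%) and by 8 at 5 W (beside 10.8%). Without AN 3W replicate 3 no member reached it at 3 W, and the lowest unadjusted p of the limma fit was 0.0608, for Mrc1.

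**Figure D3:**
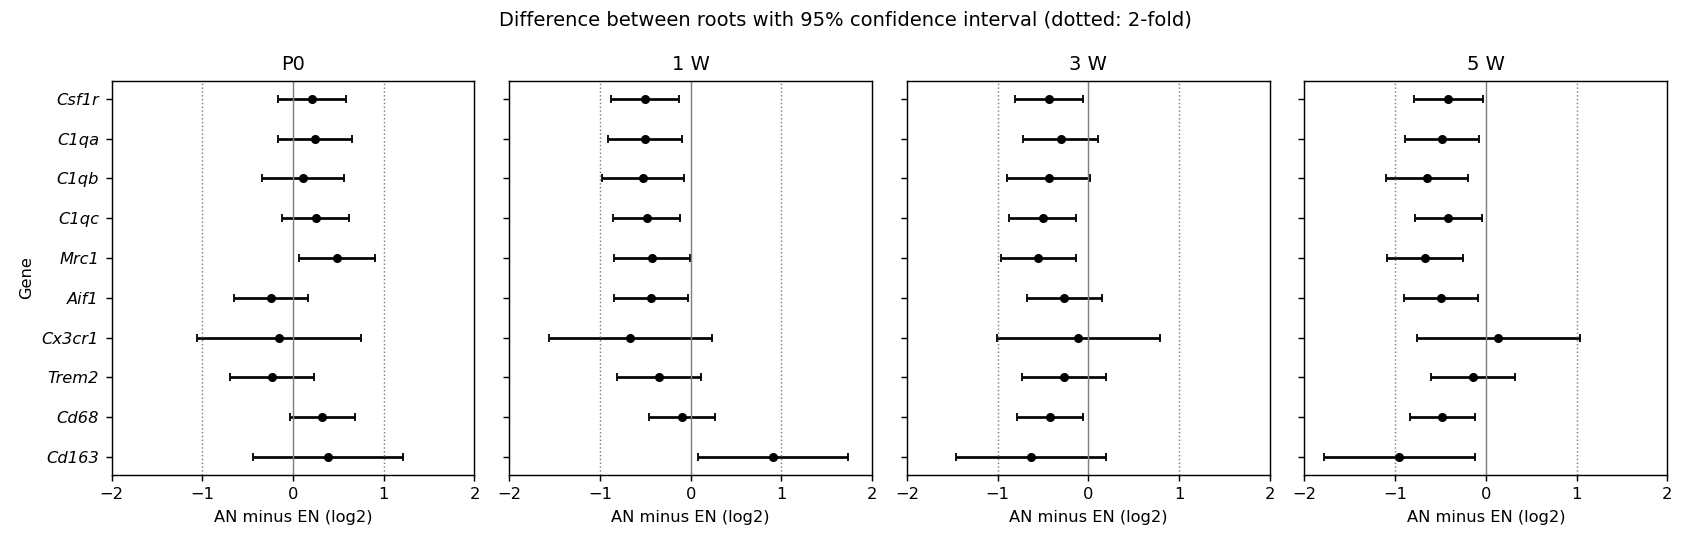
AN minus EN on the log2 scale (x axis) for each gene (y axis) at the 4 ages, with the 95% confidence interval of the limma fit. Dotted lines mark 2-fold. The medians are 0.22 at P0 and -0.48 at 5 W, and no interval lies wholly beyond a dotted line.

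AN and EN arrays of the same age and replicate number shared a slide and deviated together from their groups, so the roots were also compared within these pairs. The labels do not state this pairing, which was taken from the same data. At 3 W all arrays of both roots shared slide 4. There the deviations of same-numbered arrays correlated at 0.184, 0.107 and 0.214, and those of unmatched arrays at -0.278 to 0.116. Of 30 gene-by-pair differences at each age, 20 were higher and 9 lower in AN at P0. At the later ages 26, 27 and 28 were lower. These 30 are not independent, since each age had only 3 pairs and several members moved together. The C1q chains, for example, correlated with one another at 0.97 to 0.99 across all arrays. No share over all probes is given beside these counts. In the paired limma fit, members at an adjusted p below 0.05 numbered 0 at P0 and then 5, 3 and 7. Those at 1 W were Aif1 (adjusted p = 0.0441), C1qa (0.0456), C1qb (0.0257) and C1qc (0.0439), all lower in AN, and Cd163 (0.0287), higher in AN. At 3 W they were C1qb, C1qc and Mrc1, and at 5 W Aif1, Cd68, C1qa, C1qb, C1qc, Mrc1 and Cd163, all lower in AN. By the same rule, 5.67% of all probes were lower and 5.14% higher in AN at 1 W, and the lower share was 12.8% at 3 W and 12.9% at 5 W. Every one of these member differences was below 2-fold. The paired fit was not repeated without AN 3W replicate 3.

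The size of the root difference was much alike for Csf1r and C1q. Csf1r was lower in AN by 0.50 at 1 W, 0.44 at 3 W and 0.41 at 5 W on the log2 scale, with confidence intervals of -0.88 to -0.12, -0.81 to -0.06 and -0.79 to -0.04. C1qb differed by -0.53, -0.44 and -0.65 and C1qc by -0.49, -0.50 and -0.41. For Csf1r and the C1q genes the roots did not overlap at 1 W, a separation that was not counted over all probes. For C1q they overlapped at 5 W. The second AN array at 5 W decided part of this: without it the 5 W differences were -0.20 for C1qa, -0.35 for C1qb and -0.20 for C1qc, whereas without AN 5W replicate 3 that of C1qa was -0.727. Likewise, without AN 3W replicate 3 the 3 W difference of Csf1r was -0.17, and the median of the 10 members -0.22, with 9 of 10 lower in AN. Cd163 differed by 0.91 at 1 W, -0.63 at 3 W and -0.95 at 5 W, and its second probe was called at 5 W (-1.21). It passed 2-fold at 1 W without AN 1W replicate 1 (1.14) or EN 1W replicate 3 (1.37), and at 5 W without AN 5W replicate 2 (-1.12), AN 5W replicate 3 (-1.11) or EN 5W replicate 1 (-1.23). For Trem2 and Cx3cr1 at 5 W the differences were -0.14 (interval -0.60 to 0.32) and 0.14 (-0.76 to 1.04), with AN and EN arrays overlapping, and that of Cx3cr1 ran from -0.41 without EN 5W replicate 3 to 0.82 without EN 5W replicate 1, so its direction rested on single arrays. Trem2 turned to 0.101 without EN 5W replicate 1.

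The difference between roots in the change since P0 was tested as an interaction. Mrc1 gained less in AN than in EN by 3 W (-1.03, SE 0.281, adjusted p = 0.125) and by 5 W (-1.15, SE 0.281, adjusted p = 0.0536), and Cd163 by 5 W (-1.34, SE 0.559, adjusted p = 0.356). These 3 were called, and by their brightest probes all other members at all ages were not. Mrc1 at 1 W was called (-1.15) without AN P0 replicate 1. Cd163 at 3 W was called without AN P0 replicate 1 (-1.395) or EN P0 replicate 2 (-1.251). The dimmest Cd68 probe was called at 3 W (-1.10, adjusted p = 0.303) and 5 W (-1.27, adjusted p = 0.152), and the remaining Cd68 probe was not (-0.85 and -0.92). The second Cd163 probe was called at both ages (-1.32 and -1.56), but it was not above background at P0. The second probes of Csf1r and Cx3cr1 were not called. Of all probes, 0.838% were called in this direction at 1 W, 1.42% at 3 W and 1.5% at 5 W, beside 0, 1 and 2 of the 10 members. In the fit with arrays paired, the adjusted p was 0.0455 and 0.024 for Mrc1 and, at 5 W, 0.0331 for Cd163 and 0.0322 for C1qb (-0.762, under 2-fold), and Cd163 was also called at 3 W (-1.02, adjusted p = 0.101). Without AN 3W replicate 3, Mrc1 at 3 W was -0.92 and not called. It was also below 2-fold without AN P0 replicate 2 (-0.97) or 3 (-0.86), EN P0 replicate 1 (-0.96) or EN 3W replicate 3 (-0.96). At 5 W, Mrc1 without AN P0 replicate 3 was -0.98, and the call of Cd163 was lost without any 1 of AN P0 replicate 2 (-1.13) or 3 (-1.18), EN P0 replicate 1 (-1.25) or 3 (-1.20), AN 5W replicate 1 (-1.03) or EN 5W replicate 2 (-1.11).

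Neuronal RNA differed between the same arrays. The 8 neuron markers, summed and taken to log2, gave 15.86 to 16.7 in EN at P0 and 13.7 to 14.43 in EN at later ages, but 17.18 to 17.43 in AN at 1 W, 14.77, 14.08 and 18.9 in AN at 3 W, and 15.97, 15.62 and 13.17 in AN at 5 W. The third AN array at 3 W was highest of all, and the EN arrays of P0 lay among those of AN. Calca, which encodes the sensory peptide CGRP, read 16.5 on that AN array and 12.95, 12.97 and 13.77 in EN at P0, although these were labelled as ventral root. Of the 8 markers, 0 were called higher in AN at P0, 6 each at 1 W and 3 W, and 1 at 5 W. The part of neuronal RNA in the macrophage differences was not tested. At 5 W the mean of the 10 centred macrophage genes, in array order, was 0.41, 0.07 and 0.5 in AN. In EN of that age it was 0.99, 0.66 and 0.69. At 3 W it was 0.28, 0.53 and -0.07 in AN, and 0.52, 0.65 and 0.74 in EN. At 1 W it was -0.28, -0.22 and -0.16 in AN, and 0.05, 0.08 and 0.14 in EN.

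**Figure D4:**
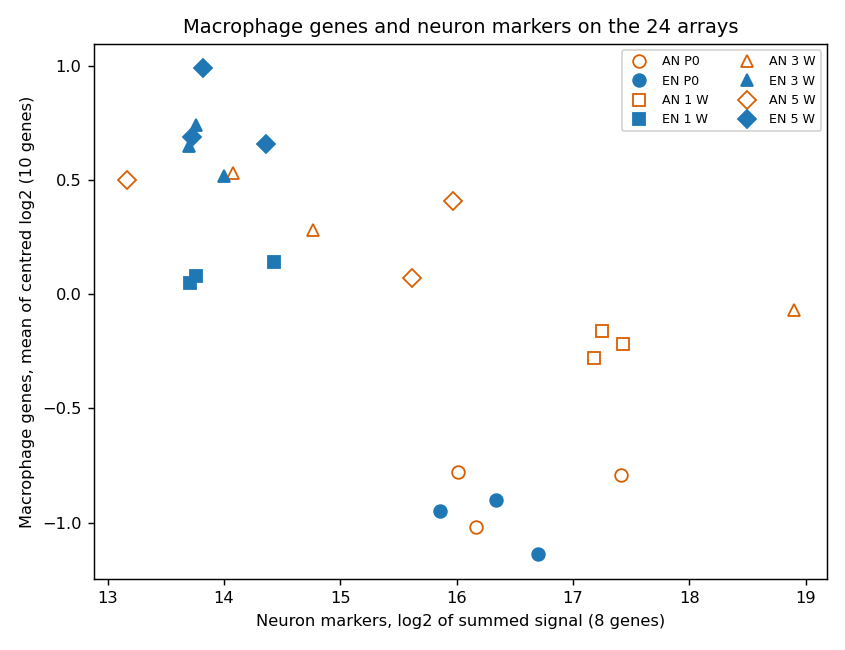
Each point is 1 of the 24 arrays, with the log2 of the summed signal of 8 neuron markers on the x axis and the mean of the 10 macrophage genes, each centred on its own mean, on the y axis. Filled blue symbols are EN, open orange symbols are AN, and shape gives age. EN arrays from 1 W on lie between 13.7 and 14.43, and 1 AN array of 3 W stands at 18.9.

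Partners of these receptors did not all follow them. Il34, a ligand of Csf1r, rose in both roots: in EN from 11.59, 11.49 and 11.29 at P0 to 14.18, 14.21 and 14.28 at 3 W, and in AN from 11.06, 11.03 and 10.94 to 13.99, 14.04 and 13.54. These are changes of 2.76 and 2.85 with adjusted p of 1.99e-10 and 1.55e-10, and no P0 array came near the later ones. The other ligand, Csf1, was not called in either root, with changes at 5 W of 0.50 in EN and 0.16 in AN. Cx3cl1, the ligand of Cx3cr1, was not called either and lay at -0.53 in EN and -0.77 in AN at 1 W, the age at which Cx3cr1 was highest. Tyrobp, the adaptor of Trem2, was called in EN at 3 W (1.07) and 5 W (1.22) but stayed under 2-fold in AN (0.41 and 0.57), and it was lower in AN by 0.51 at 3 W (adjusted p = 0.0421) and 0.48 at 5 W (adjusted p = 0.047). Of the 8 ligands and signalling partners examined, 2, 5 and 6 were called higher in EN at 1 W, 3 W and 5 W and 1, 2 and 2 in AN, with 0 lower.

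Other macrophage lists rose in part. Of 8 macrophage transcription factors, 2, 3 and 4 were called higher in EN and 2, 4 and 3 in AN at the 3 later ages, Nr1h3 (LXR alpha) reaching 3.23 in EN and 3.13 in AN at 5 W while Mef2c stood at -0.49 and -0.82. Of 15 further macrophage and leukocyte genes, 4, 9 and 10 were called higher in EN and 3, 4 and 6 in AN. Lyz2 (lysozyme) gained 2.57 in EN by 5 W and was called in AN too, Csf3r stood at -0.05 and 0.14, and Itgam was called lower in EN at 3 W (-1.13). Ptprc, named after its values were seen, was called lower at 3 W in both roots. Of 14 complement genes other than C1q, 6, 11 and 11 were called higher in EN and 3, 9 and 11 in AN, with 1 lower at 1 W in each root. The C1 inhibitor Serping1, which holds the C1 complex in check, gained 1.84 in EN and 1.18 in AN by 5 W.

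The list closest in role to Cd163 and Mrc1 was that of resident scavenging macrophages, with 13 of its 14 genes tested and Timd4 not above background. It split at 1 W, with 1 called higher and 3 lower in EN and 0 higher and 4 lower in AN. Then 9 were called higher from 1 W to 3 W in EN and 7 in AN, beside 6.61% and 6.92% of all probes. Lyve1 and F13a1, chosen after their values were seen, shared the dip of Cd163 at 1 W: -1.38 and -2.27 in EN and -1.58 and -1.86 in AN, all called. By 5 W, 11 of the 13 were called above P0 in EN and 5 in AN. An interaction called lower in AN was found for 7, among them Pf4 (-1.17), beside 1.5% of all probes. Of 14 lipid handling and phagocytosis genes, the setting in which Trem2 is best known, 5, 5 and 6 were called higher in EN and 4, 5 and 5 in AN, with 1, 0 and 0 lower in EN and 1, 1 and 2 in AN.

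Genes of other cells were followed on the same arrays, and the shares of all probes given for the other macrophage lists stand beside their counts too. Of 10 microglia markers, 3, 3 and 4 were called higher in EN and 3, 4 and 4 in AN, with up to 3 lower, and Tmem119 was called lower in AN at all later ages (-1.09, -1.13 and -1.03). Siglech fell at 3 W (-1.20 in EN and -1.28 in AN). The mean log2 of the 10 markers was nonetheless highest at 1 W. In EN it ran from 8.67 to 9.13 at P0, 9.81 to 10.77 at 1 W and 9.26 to 9.38 at 3 W. In AN it ran from 8.98 to 9.2, 9.51 to 9.55 and 9.17 to 9.21 at these ages. Their summed level was lower at 3 W (15.49 to 16.48 in EN) than at P0 (17.03 to 17.21). Of 9 monocyte and neutrophil markers, 2, 4 and 4 rose in EN and 2, 3 and 3 in AN, with 1, 0 and 1 lower in AN. Of 9 lymphocyte and dendritic cell markers tested, 3, 5 and 4 rose in EN and 2, 5 and 4 in AN, 1 was lower in AN at 3 W, and Cd8a, Xcr1 and Clec9a were not above background. Of 5 mast cell markers, 4, 4 and 3 were called lower in EN and 3 at each age in AN. Between roots, the markers of other cells moved beside the members. The median AN minus EN difference from 1 W on was -0.51, -0.47 and -0.51 for 8 fibroblast and meningeal markers, -0.33, -0.38 and -0.27 for 6 endothelial markers (0.53 at P0), and -0.07, -1 and -1.03 for 8 red cell markers, with 0 of these called at any age. Summed levels on the log2 scale at 5 W ran from 18.91 to 19.26 in EN and 18.36 to 18.95 in AN for fibroblast and meningeal markers, 14.21 to 14.91 and 14.04 to 14.75 for endothelial, and 19.82 to 19.97 and 19.32 to 19.66 for red cell markers, the last without overlap. The part of these cells in the root differences and in the course of the 10 genes was not tested.

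Among all genes, those whose course over the 24 arrays was most like the mean of the 10 members were Nckap1l (r = 0.981), 1600014C10Rik (0.980), Ptpn6 (0.979), Fgd2 (0.978), Srr (0.976), Clec7a (0.975), Clec4a3 (0.974) and Arhgap30 (0.972). Among the members themselves, the correlation with the mean of the other 9 was 0.979 for C1qa, 0.973 for Csf1r and 0.971 for C1qc, and lowest for Trem2 (0.468), Cx3cr1 (0.387) and Cd163 (0.361).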

How the data were processed

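RNA from 24 root samples was hybridized to Agilent SurePrint G3 mouse arrays. Per the labels, images were read with Agilent Feature Extraction 10.7.1.1, which gives scanner intensity, and the authors deposited log2 values that they had quantile normalized in GeneSpring. These log2 values were the main data because they are those the authors deposited. Quantile normalization sets all arrays to 1 distribution and so hides a shift common to all genes. The deposited intensity files gave background flags, slides and the alternative normalizations. Median intensity per array ran from 45.381 to 190.578, with 55.09% to 71.74% of probes well above background and 0 saturated spots, and the precision of each value is limited by the 3 arrays per group. Control spots were left out.

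A probe was tested where each array of some group had it well above background, which kept 36409 of 56605 gene probes. Group means were fitted with limma 3.58.1 in R 4.3.3 (16 residual degrees of freedom), with Benjamini-Hochberg adjustment over all tested probes. The fitting code was tested on simulated data. Replicate numbers were taken as pairs of AN and EN within an age, because the residuals of same-numbered arrays correlated in all 12 pairs (r from 0.107 to 0.646), and each pair shared a slide. The labels do not state this pairing, and at 3 W all arrays shared a slide. The methods speak of independent experiments for every group, but not of whether its 3 arrays came from separate animals or pools, so p-values measure the spread between these samples, which may be technical.

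The members and all gene lists were chosen with earlier results of these data known. Named were all members, Csf1, Il34, Cx3cl1 and Tyrobp, up to 3 of the brightest genes of each other list, list genes not above background, and the 8 genes most like the mean course of the members. Ptprc, Lyve1 and F13a1 fall outside this rule. Alternatives were other normalizations (quantile or 75th percentile of the scanner intensity), normexp background correction, other filters, all probes of a gene, adjusted p, array weights, replicate, slide and scan batch blocks, and leaving out arrays. Leaving out P0 and AN 3W replicate 3, and an adjusted p without a fold threshold, were added after seeing the data. Upstream bases came from RefSeq (GRCm38.p6) by gene symbol. C1qa and Csf1r have no sequence shown.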

Additional observations from a re-analysis of the deposited data

Results flagged for a closer look

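The change since P0 differed between roots for a pair of genes, by the interaction test of the limma fit. Mrc1 gained less in AN than in EN by 3 W (-1.034, adjusted p = 0.125) and by 5 W (-1.152, adjusted p = 0.0536), and Cd163 by 5 W (-1.341, adjusted p = 0.356). None of the 3 passed an adjusted p of 0.05 without the pairing of arrays.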

How the results depend on the processing

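Each count below is of the 10 members called. AN against EN at 1 W went from 0 to 1 with array weights, and at 5 W from 0 to 1 with the 75th percentile, with the mean of all probes of a gene and with array weights. AN at 5 W against P0 went from 5 to 8 by adjusted p without a fold threshold, which also took 3 W against 1 W from 1 to 5 in EN and in AN. The scan batch block took AN 3 W against 1 W from 1 to 2. EN 5 W against 3 W went from 1 to 0 with normexp, the mean of all probes, either adjusted p, array weights and only the arrays compared, and to 2 with the slide or scan batch block. AN 5 W against 3 W went from 0 to 1 with those blocks. The interaction at 3 W went from 1 to 2 with the mean of all probes, the slide, scan batch, both replicate blocks, array weights and only the arrays compared, and to 0 by either adjusted p, which also took the interaction at 5 W from 2 to 0. The replicate block, across or within ages, changed no other count by over 1.5 times. The causes were not tested.

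Leaving out 1 array at a time, AN against EN gave 0 to 0 at P0, 0 to 1 at 1 W, 0 to 0 at 3 W and 0 to 1 at 5 W. EN against P0 gave 9 to 9, 7 to 8 and 8 to 9, and AN against P0 gave 4 to 4, 3 to 9 and 6 to 9. Consecutive steps gave 1 to 1 (3 W against 1 W, EN and AN), 0 to 2 (EN 5 W against 3 W) and 0 to 1 (AN 5 W against 3 W), and interactions 0 to 1, 0 to 2 and 0 to 2. Of 170 differences of a member, 19 turned sign under some alternative, 0 of them called as reported above. Those over 0.25 in size were Cx3cr1 in EN from 1 W to 3 W (-0.762, but 0.432 with the slide block and 0.523 with the scan batch block) and its interaction at 5 W (0.293, but -0.254 without EN 5W replicate 3). Cx3cr1 in AN from 1 W to 3 W went from -0.206 to 0.988 and 1.078 with those blocks. With all probes averaged, Csf1r fell under 2-fold in EN at 1 W (0.91) and 3 W (0.94) and in AN at 3 W (0.41) and 5 W (0.73).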
